A study of Mus musculus with 25 samples.

Results

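The *soleus* RNA of mice that had run on a treadmill was compared between 6 mice without DNMT3A in their muscle fibers (mD3AKO) and 7 wild type (WT) mice, which are 13 of the 25 libraries of the series. The 13 were chosen by the names of the columns of the count table, which give the genotype KO or WT and the time point of 60 min. Each library came from 1 *soleus* of 1 mouse, and the count table holds the reads assigned to each gene.

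All mice were C57BL/6, 12 weeks old, and carried both copies of *Dnmt3a* with loxP sites around an exon of the catalytic domain (*Dnmt3a* flox/flox). WT mice had no Cre, so that the loxP sites were shared by both groups. mD3AKO mice carried in addition the mCK-Cre transgene, in which the muscle creatine kinase promoter drives Cre recombinase late in muscle differentiation and also in the heart. By this design, satellite cells, vessels, fat and other cells of the muscle are not targeted by Cre, and whether they kept *Dnmt3a* was not tested here. The mice ran for 30 min and were killed 60 min later. Of the WT mice 4 were female and 3 male, and of the mD3AKO mice 3 were female and 3 male. The other 12 libraries, of 5 WT and 7 mD3AKO mice killed at rest, entered the same model, where they took part in the filter on low counts and in the estimate of the spread, and their values are set beside those of the exercised mice. The comparison asks which transcripts differed between the genotypes 1 hour after exercise.

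DNMT3A adds methyl groups to cytosines, mainly where a C is followed by a G (CpG), on DNA that carried no methyl group there before. DNMT3B does the same on other sites or in other cells, and DNMT1 copies existing methylation at replication. In mature muscle fibers, whose nuclei no longer divide, methylation of promoters is commonly associated with low transcription, and genes of embryonic and perinatal muscle are among those that adult fibers keep low.

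The totals were 26852372 to 37431801 counts per WT library and 30555036 to 32189360 per mD3AKO library. Genes of ribosomal RNA held 7.95% to 11.9% of the counts in WT and 8.71% to 11.9% in mD3AKO libraries. Among the rested libraries, that of the mD3AKO male 15 had 22671457 counts, of which these genes held 39.6%. A fit without it called the same 18 genes in exercised mice. The rested values given below include this library. The label *soleus* was checked against markers of muscle fibers. *Myh7*, the slow myosin heavy chain, stood at 12199 ± 1289 CPM (counts scaled to the library total; mean ± SD, n = 7) in WT and 11766 ± 1956 (n = 6) in mD3AKO mice, and *Myh2*, the fast oxidative myosin, at 10239 ± 1073 and 11499 ± 2748. None of 12 slow fiber genes and none of 14 fast fiber genes reached an unadjusted p under 0.05 between the genotypes, and the medians of their log2 fold changes were 0.03 and 0.00. In a fit of females only, 2 of the slow fiber genes were higher and 4 of the fast fiber genes lower at that p, which 462 of the 16895 genes of that fit reached in either direction. That the mice had exercised was read from *Ppargc1a*, a coactivator gene that contraction induces, which stood at 58.3 to 113 CPM in the exercised WT mice and at 30.8 to 36.2 in the rested WT mice. In mD3AKO mice it stood at 54.2 to 111 CPM after exercise and at 34.1 to 58.1 at rest, so that these ranges overlapped, with medians of 69.1 and 38.3. One mD3AKO library, of the male mouse number 19, stood apart in heat shock genes and several other transcripts described below, and the lists and genes in which it stood apart are also given without it.

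*Dnmt3a* itself fell by 1.63 on the log2 scale (SE 0.10, adjusted p = 9.86e-11), which checks the labels. Here and below, log2 fold changes are mD3AKO minus WT in exercised mice, p-values come from edgeR's quasi-likelihood test, and adjusted p-values are over all 16340 genes tested. *Dnmt3a* was at 106, 120, 131, 106, 108, 121 and 128 CPM in the WT mice and at 37.8, 34.7, 43.0, 34.7, 36.7 and 40.6 CPM in the mD3AKO mice. Every mD3AKO library was below every WT library, and the mean was lower by 67.6%. An exact 2-sided permutation test of the CPM gave p = 0.000583, the smallest that the 1716 relabellings of 13 mice allow. In bulk tissue, fewer cells of a type and less RNA per cell cannot be told apart, and the share of the remaining *Dnmt3a* RNA that came from cells without Cre was not tested.

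The other genes of DNA methylation differed little. *Dnmt1* was at 15.8 ± 1.83 CPM in WT and 15.2 ± 1.19 CPM in mD3AKO mice, and *Dnmt3b* at 0.966 ± 0.241 and 1.04 ± 0.233 CPM. Per kilobase of exon, the WT level was 7.03 CPM for *Dnmt3a*, 2.14 for *Dnmt1* and 0.189 for *Dnmt3b*. Of 16 genes of the methylation machinery that were tested, 3 were lower at an unadjusted p under 0.05 and 0 were higher, beside 2.28% and 3.23% of all genes tested. Beside *Dnmt3a* these were *Kdm2b*, which encodes a protein that binds unmethylated CpG, with a log2 fold change of -0.24 (SE 0.07, edgeR adjusted p = 0.438), and *Mbd1*, which encodes a protein that binds methylated CpG, with -0.11 (SE 0.05, adjusted p = 0.834). *Kdm2b* did not overlap between the groups, at 9.43 to 10.8 CPM in WT and 7.54 to 9.31 CPM in mD3AKO mice. Neither passed the adjusted threshold.

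Across the genome, 18 genes passed an adjusted p of 0.05 (0.11% of genes tested), 17 higher (0.104%) and 1, *Dnmt3a*, lower (0.00612%). At an unadjusted p under 0.05 there were 900 (5.51%), 528 higher (3.23%) and 372 lower (2.28%), and 50.6% of all genes had a log2 fold change above 0. The 17 that rose were *Gm44289*, *Gm31520*, *Mttp*, *Slc38a1*, *Myh8*, *Rab17*, *Kcne1l*, *Eya4*, *Ctxn3*, *Sim2*, *Aldh1l1*, *Elf3*, *Rhoh*, *Gm47708*, *Agtrap*, *Gm43691* and *Cmtm7*. Of the 18 called genes, 14 did not overlap between the groups in CPM, beside 41 genes (0.251%) among all tested, and for the 18 the absence of overlap is no separate finding, since they were called on the same values. The median log2 fold change of all genes was 0.00. In 13 fits that each left out 1 exercised mouse, the calls of *Cmtm7*, *Gm43691*, *Agtrap*, *Gm47708* and *Rhoh* were not all kept. *Cmtm7* was called in 4 of the 13 (not without mouse 3, 5, 6, 9, 17, 18, 19, 22 or 25), with edgeR adjusted p-values up to 0.129. *Gm43691* was called in 5 (not without mouse 3, 4, 5, 6, 18, 19, 22 or 25; up to 0.125), *Agtrap* in 7 (not without mouse 5, 6, 9, 10, 17 or 22; up to 0.0934), *Gm47708* in 8 (not without mouse 3, 4, 9, 17 or 23; up to 0.0585) and *Rhoh* in 12 (0.0639 without mouse 19). The remaining called genes passed in each of the 13 fits. A fit of the 13 exercised libraries alone tested 15272 genes and called 15, of which 13 were among the 18. *Cmtm7*, *Elf3*, *Gm47708* and *Rhoh* were not called there, *Gm43691* was not tested, and *Adig* and *D430041D05Rik* were called in addition. With library totals in place of TMM, 439 genes reached an unadjusted p under 0.05 and 12 were called, all among the 18, without *Eya4*, *Agtrap*, *Cmtm7*, *Gm43691*, *Gm47708* and *Rhoh*.

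**Figure D1:**
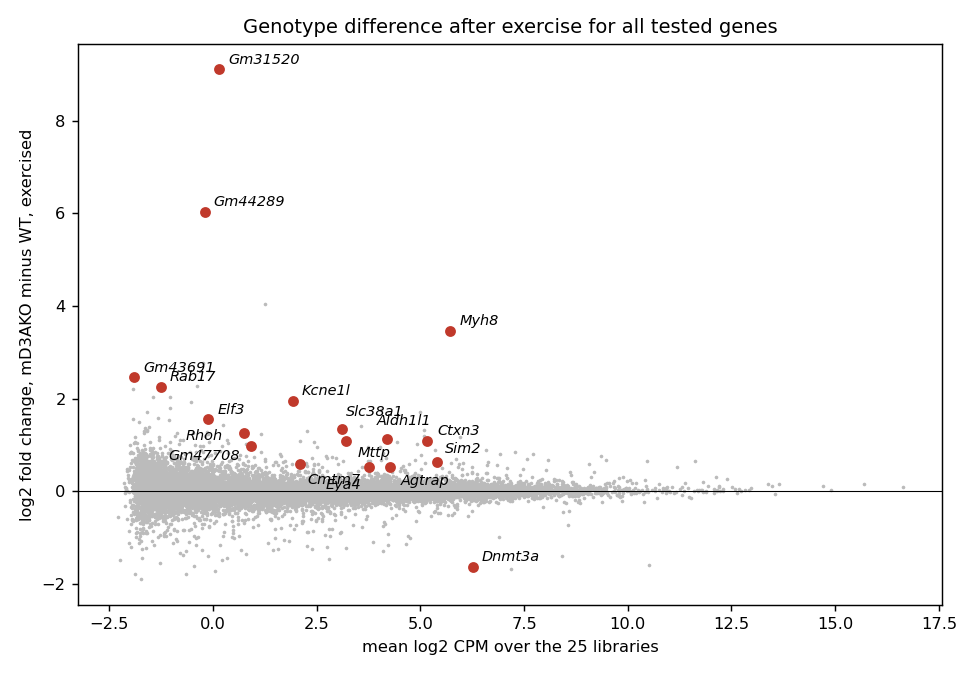
Log2 fold change between exercised mD3AKO and WT mice against the mean log2 CPM over the 25 libraries, 1 point per tested gene (16340). The 18 called genes are in red with their names, 17 above 0 and *Dnmt3a* below, and the fitted values of *Gm44289* and *Gm31520* depend on the prior count because WT libraries held almost no reads of them.

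*Myh8*, the perinatal myosin heavy chain, which developing and regenerating fibers use and adult fibers replace, rose most among the protein-coding genes, by 3.46 on the log2 scale (SE 0.43, edgeR adjusted p = 6.70e-05). *Myh8* was at 7.79, 11.1, 4.08, 8.92, 5.23, 10.8 and 9.79 CPM in the WT mice and at 144, 108, 35.8, 47.6, 67.0 and 145 CPM in the mD3AKO mice. The lowest mD3AKO mouse stood above the highest WT mouse, and within the mD3AKO group the 3 females were all above the 3 males. The mean was 11.1-fold that of WT. Per kilobase of exon it was 7.75 CPM in mD3AKO mice, against 1370 CPM for *Myh7*, so that *Myh8* remained a small part of the myosin RNA. In the transcripts, 18.6% of the words of 31 bases of *Myh8* occur in another gene, 10.1% in *Myh2*, whose own log2 fold change was 0.17 (SE 0.14, adjusted p = 0.988).

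*Eya4*, *Sim2* and *Elf3*, which encode transcriptional regulators, also rose. *Eya4*, a coactivator of homeobox factors in muscle and other tissues, rose from 9.52 to 12.2 CPM in WT to 14.0 to 17.5 CPM in mD3AKO mice (log2 fold change 0.52, SE 0.08, edgeR adjusted p = 0.000774). *Sim2*, a bHLH-PAS transcription factor expressed in embryonic limb muscle, stood between 28.5 and 37.9 CPM in WT and between 44.1 and 61.0 CPM in mD3AKO mice, with medians of 33.3 and 49.8 (0.63, SE 0.10, adjusted p = 0.00254). *Elf3*, an ETS factor of epithelia, was at 0.454 to 0.971 CPM in WT and at 0.686 to 2.68 CPM in mD3AKO mice (1.56, SE 0.28, adjusted p = 0.0115). *Eya4* had an adjusted p of 0.246 with library totals in place of TMM. For *Eya4* and *Sim2* no mouse of one group entered the range of the other, while for *Elf3* the mD3AKO female 23 lay within the WT range. *Elf3* had an adjusted p of 0.0596 when the 13 exercised libraries were fitted alone. It rested on 12 to 31 counts per WT library, and its exons overlap those of *Gm26642* on the opposite strand, so that reads of the pair cannot be told apart where counting did not use the strand.

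**Figure D2:**
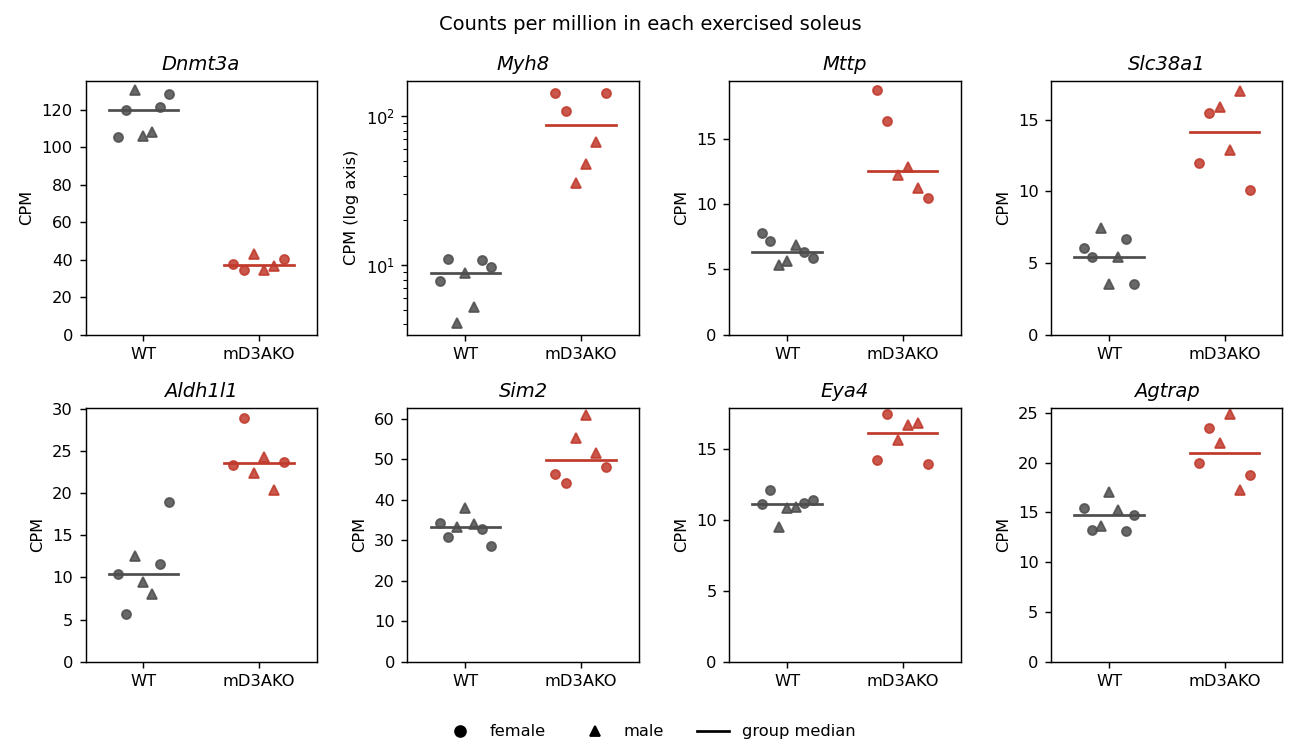
CPM of 8 called genes in each exercised *soleus*, WT (n = 7) at left and mD3AKO (n = 6) at right of each panel, circles for females, triangles for males and a line at the group median. *Myh8* is on a log axis, and in all 8 panels the lowest and highest mice of the groups do not overlap.

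*Mttp*, *Slc38a1* and *Aldh1l1*, which encode a lipid transfer protein, a carrier and an enzyme, rose as well. *Mttp*, which encodes the microsomal protein that loads lipid onto apolipoprotein B, was at 5.31 to 7.83 CPM in WT and 10.5 to 18.8 CPM in mD3AKO mice, a 2.13-fold higher mean (log2 fold change 1.09, SE 0.13, edgeR adjusted p = 6.70e-05). *Slc38a1*, a sodium-coupled transporter of glutamine and other neutral amino acids, was at 3.51 to 7.43 CPM in WT and 10.1 to 17.0 CPM in mD3AKO mice (1.35, SE 0.17, adjusted p = 6.70e-05). *Aldh1l1*, the cytosolic 10-formyltetrahydrofolate dehydrogenase of folate metabolism, was at 5.62 to 18.9 CPM in WT and 20.4 to 28.9 CPM in mD3AKO mice (1.12, SE 0.19, adjusted p = 0.00452). The groups did not overlap for any of the 3 genes, and for *Aldh1l1* the WT female 25, at 18.9 CPM, came close to the lowest mD3AKO mouse. *Gm43691*, an antisense transcript inside *Mttp* that overlaps its exons, was also called (2.46, SE 0.49, adjusted p = 0.0325) on 0 to 4 counts per WT library and 4 to 24 per mD3AKO library. It lies on the opposite strand of *Mttp*, and whether its counts are reads of *Mttp* was not tested.

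The other protein-coding genes were *Rab17*, *Kcne1l*, *Rhoh*, *Agtrap*, *Cmtm7* and *Ctxn3*. *Rab17*, an epithelial small GTPase of endosome sorting, was at 0.0824 to 0.188 CPM in WT and 0.475 to 0.814 CPM in mD3AKO mice, without overlap, on 3 to 6 and 14 to 27 counts per library (log2 fold change 2.26, SE 0.31, edgeR adjusted p = 0.000355). *Kcne1l*, a regulatory subunit of potassium channels, was at 0.815 to 2.88 CPM in WT and 2.63 to 7.64 CPM in mD3AKO mice (1.96, SE 0.28, adjusted p = 0.000551), with the WT male 9 inside the mD3AKO range. *Rhoh*, a GTPase without GTP hydrolysis known from lymphocytes, was at 0.340 to 1.13 CPM in WT and 0.964 to 2.44 CPM in mD3AKO mice (1.27, SE 0.23, adjusted p = 0.0143). *Agtrap*, a protein that binds the angiotensin II type 1 receptor and promotes its internalization, was at 13.1 to 17.0 CPM in WT and 17.2 to 24.9 CPM in mD3AKO mice (0.53, SE 0.10, adjusted p = 0.0213). The groups of *Agtrap* were separate by a narrow margin, 17.0 CPM in the WT male 16 against 17.2 in the mD3AKO male 19, and those of *Rhoh* overlapped. *Cmtm7* rose by 0.59 (SE 0.12, adjusted p = 0.0341) and *Ctxn3* by 1.09 (SE 0.16, adjusted p = 0.00093), both without overlap, with means of 3.42 and 5.14 CPM for *Cmtm7* and 21.9 and 46.7 CPM for *Ctxn3*.

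The remaining called genes do not code for protein. *Gm44289* and *Gm31520* are annotated as processed pseudogenes, *Gm31520* as a transcribed one, on the forward strand of chromosome 6 (mm10), at chr6:66254743-66258205 and chr6:66264155-66284845, 5949 bases apart. *Gm31520* had 0 counts in each of the 7 WT libraries and 79, 100, 29, 49, 83 and 52 counts in the mD3AKO libraries. *Gm44289* had 5 counts over all WT libraries, with 3 at most in 1, and 29 to 87 counts in each mD3AKO library. These are reads in every mD3AKO mouse and close to none in WT mice. Against a floor of 3 counts per WT library, *Gm31520* was at least 22.8-fold higher and *Gm44289* at least 18.1-fold higher in mD3AKO mice. *Gm31520* shares 4.24% of its words of 31 bases with the transcripts of *Sc5d*, *Gm47708* shares 9.26% with other genes, and *Gm44289* shares none. *Gm47708*, an intergenic long noncoding RNA on chromosome 10, was at 0.781 to 1.84 CPM in WT and 2.04 to 3.27 CPM in mD3AKO mice (log2 fold change 0.99, SE 0.18, edgeR adjusted p = 0.0168).

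Since DNMT3A acts on CpG, the promoters of the called genes were read for CG, the letters of a CpG on either strand. RefSeq promoters of GRCm38.p6, the assembly called mm10, from 250 bases before to 50 bases after a start, were found for 12 of the 18 genes. The median number of CG over these 12 was 12, beside a median of 7 (quartiles 3 and 20) over all 32851 promoters of the table, of which 94.6% held at least 1. The numbers ran from 4 in *Gm47708* and 5 in *Rab17* to 36 in *Eya4* and 46 in *Dnmt3a*. Several between 5 and 27 are printed, all of genes that rose without overlap between the mice. They are examples, and other such genes, as *Cmtm7* with 15, are not printed. CG is in capitals, and each sequence reads 5′ to 3′ on the strand of its gene.
Myh8: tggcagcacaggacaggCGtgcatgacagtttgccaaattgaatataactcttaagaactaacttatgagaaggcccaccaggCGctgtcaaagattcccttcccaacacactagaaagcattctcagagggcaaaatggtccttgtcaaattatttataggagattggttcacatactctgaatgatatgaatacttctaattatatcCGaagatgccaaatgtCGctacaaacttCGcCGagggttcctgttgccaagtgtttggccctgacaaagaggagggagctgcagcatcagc
Rab17: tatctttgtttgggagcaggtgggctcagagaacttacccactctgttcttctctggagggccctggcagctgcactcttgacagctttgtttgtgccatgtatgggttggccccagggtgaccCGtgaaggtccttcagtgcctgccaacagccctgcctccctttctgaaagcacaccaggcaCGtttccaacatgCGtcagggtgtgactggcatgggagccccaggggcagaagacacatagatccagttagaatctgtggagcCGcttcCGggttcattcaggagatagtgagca
Aldh1l1: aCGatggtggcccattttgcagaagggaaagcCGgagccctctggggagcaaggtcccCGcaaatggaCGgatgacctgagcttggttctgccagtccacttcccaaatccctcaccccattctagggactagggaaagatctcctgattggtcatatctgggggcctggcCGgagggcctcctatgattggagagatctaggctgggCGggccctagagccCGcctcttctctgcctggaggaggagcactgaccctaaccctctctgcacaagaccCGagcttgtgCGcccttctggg
Agtrap: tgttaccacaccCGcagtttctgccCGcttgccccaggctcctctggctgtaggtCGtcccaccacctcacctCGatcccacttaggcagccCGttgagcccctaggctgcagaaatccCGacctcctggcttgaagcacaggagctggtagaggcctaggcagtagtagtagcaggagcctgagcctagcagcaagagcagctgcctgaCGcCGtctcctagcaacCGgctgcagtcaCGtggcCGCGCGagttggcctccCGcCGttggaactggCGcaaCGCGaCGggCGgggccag
Mttp: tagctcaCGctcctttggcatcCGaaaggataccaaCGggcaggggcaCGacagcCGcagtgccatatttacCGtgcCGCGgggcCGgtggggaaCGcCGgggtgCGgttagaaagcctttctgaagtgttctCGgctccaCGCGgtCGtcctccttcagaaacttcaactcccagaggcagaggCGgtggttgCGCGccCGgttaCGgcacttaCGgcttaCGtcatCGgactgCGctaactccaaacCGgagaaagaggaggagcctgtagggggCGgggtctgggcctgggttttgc
*Myh8* held 6 CG (chr11:67276874-67277173, forward strand; 56.4% of all promoters held at least as many), *Rab17* 5 (chr1:90967618-90967917, reverse strand; 62.0%), *Aldh1l1* 9 (chr6:90550543-90550842, forward strand; 45.8%), *Agtrap* 20 (chr4:148088015-148088314, reverse strand; 26.5%) and *Mttp* 27 (chr3:138143369-138143668, reverse strand; 15.5%). The start used for *Aldh1l1* lies 64366 bases inside the gene as the count annotation draws it. Those used for *Rab17* and *Mttp* lie 1994 and 1550 bases inside, and that of *Rhoh*, which enters the median, 2371 bases. Sparse and dense promoters occurred among the genes that rose, and the counts of CG are a description of the sequence, not of its methylation, which was not analysed here.

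The 18 genes were then set beside the rested mice, which share no library with the exercised mice. The genotype difference at rest had the same direction for 18 of 18 genes (53.4% of all genes had a log2 fold change above 0 at rest). It was at an unadjusted p under 0.05 for 17 and at an adjusted p under 0.05 for 13, beside 3.65% and 0.0918% of all genes in that comparison, of which 2.08% were higher at an unadjusted p under 0.05. *Myh8* was higher by 3.32 (SE 0.49) at rest and by 3.46 (SE 0.43) after exercise, and *Dnmt3a* was lower at rest, with a log2 fold change of -1.41 (SE 0.10). The 5 that did not pass the adjusted threshold at rest were *Elf3*, *Gm47708*, *Agtrap*, *Gm43691* and *Cmtm7*. *Gm47708* was at 1.66 ± 0.257 CPM (n = 5) in rested WT and 1.76 ± 0.410 CPM (n = 7) in rested mD3AKO mice, and its log2 fold change at rest was 0.07 (SE 0.20). Its difference between the effects after exercise and at rest had an unadjusted p of 0.00215 and an adjusted p of 0.999828 in the edgeR test of the interaction, so that a separate effect in exercised mice did not hold after adjustment. Over all 16340 genes the interaction gave 0 calls, with 403 genes at an unadjusted p under 0.05 (2.47%), and DESeq2 and limma-voom also gave 0, with 618 and 348 genes at an unadjusted p under 0.05. *D430041D05Rik* and *Calml3* were called at rest and not after exercise, where their log2 fold changes were 0.72 (SE 0.15, adjusted p = 0.0634) and 1.36 (SE 0.39, adjusted p = 0.422). In 3 of 16 other settings *D430041D05Rik* was also called after exercise, with the 13 exercised libraries alone among them (edgeR adjusted p = 0.0364). For *Calml3* this was so in 0 of 14.

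**Figure D3:**
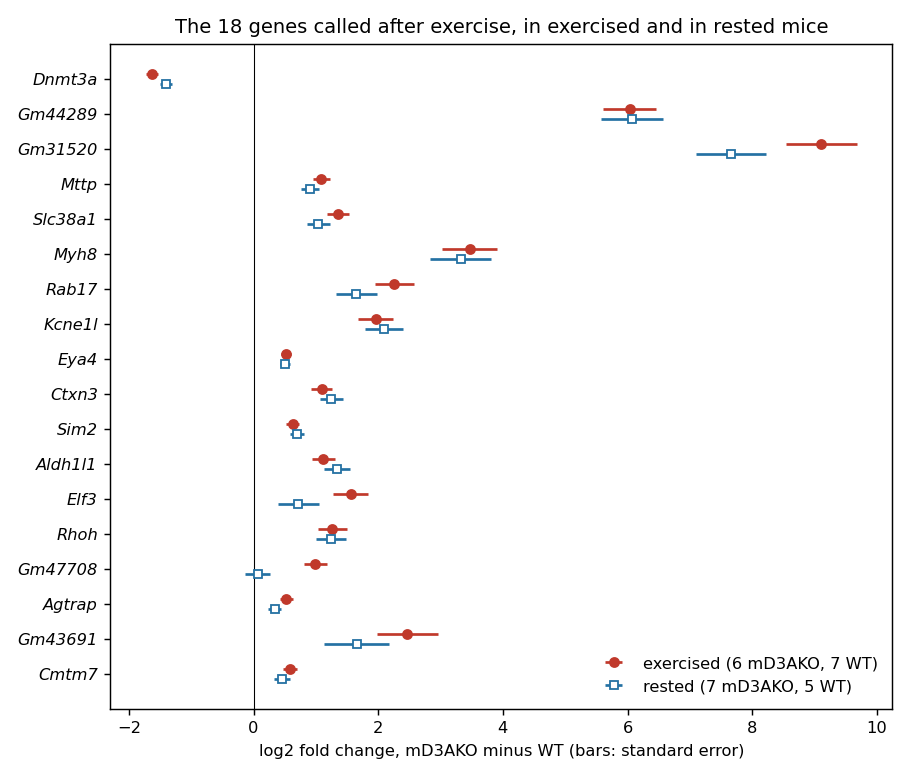
Log2 fold change with standard error for the 18 genes called in exercised mice (red circles, 6 mD3AKO and 7 WT) beside the same genes in rested mice (open blue squares, 7 mD3AKO and 5 WT). All 18 pairs lie on the same side of 0, and *Gm47708* is near 0 at rest, at 0.07.

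The sexes were compared in a model with 8 groups of sex, genotype and exercise. The 18 genes had the same sign in females and in males, which is no separate finding since they were called on the same mice, and 7 genes were called in females (0.0428% of those tested) and 9 in males (0.0551%). *Myh8* was higher by 3.74 in females and 3.04 in males, and *Mttp* by 1.17 and 1.03. The edgeR test of genotype by sex, adjusted over all genes, gave 0 calls and 551 genes at an unadjusted p under 0.05 (3.37%), among them 1 of the 18, *Gm44289*. DESeq2 also gave 0, with 635 genes at an unadjusted p under 0.05.

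Next to the called genes, the ranking by p continued with *Myog*, the transcription factor of muscle differentiation (log2 fold change 1.40, SE 0.29, edgeR adjusted p = 0.0522), *D430041D05Rik* and *Mettl27* (-0.40, SE 0.08, adjusted p = 0.0634). *Cmtm7*, the last gene inside the threshold, had an adjusted p of 0.0341. *Myog* was at 8.59, 8.47, 5.03, 7.66, 5.95, 16.6 and 4.98 CPM in the WT mice and at 13.8, 10.8, 15.9, 34.3, 35.2 and 20.4 CPM in the mD3AKO mice. All mD3AKO mice but 3 (females 3 and 6 and male 10) stood above the highest WT mouse, the female 22. *Myog* was called in 5 of 16 other settings, with DESeq2 among them (adjusted p = 0.00562), and in 3 of the 13 fits without 1 exercised mouse (0.00341 without mouse 22). It had an adjusted p of 0.252 without mouse 19. In the 8-group model its log2 fold change was 0.63 in females and 2.19 in males, with an unadjusted p of 0.00728 and an adjusted p of 0.999916 for the difference.

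*Pax7*, the transcription factor of satellite cells, followed at 2.58 to 4.20 CPM in WT and 3.69 to 5.82 CPM in mD3AKO mice (log2 fold change 0.60, SE 0.15, edgeR adjusted p = 0.186; 0.0412 in DESeq2), and was called in 4 of 16 other settings. Its direction was shared by few other markers of satellite cells. Of 15 such markers, 1 was higher and 1, *Cdh15*, was lower at an unadjusted p under 0.05 (3.23% and 2.28% of all genes), 5 had a log2 fold change above 0, and the median was -0.07. The number lower was 0 without mouse 3, 4, 5, 16, 17 or 22 and 2 without mouse 19. Their summed level was 463 to 622 CPM in mD3AKO and 501 to 614 CPM in WT mice. *Plin3*, a protein of lipid droplets, was at 65.2 to 99.4 CPM in WT and 94.6 to 147 CPM in mD3AKO mice (0.58, SE 0.14, adjusted p = 0.186). *Plin3* was called in 4 of 16 other settings, with DESeq2 among them (adjusted p = 0.0486). *B4galt6* (0.66, SE 0.15, adjusted p = 0.0865), *A930002C04Rik* (1.72, SE 0.39, adjusted p = 0.123) and *Arhgap9* (0.92, SE 0.22, adjusted p = 0.186) were of the same direction, and *Lyplal1* of the other (-0.63, SE 0.15, adjusted p = 0.154). The largest negative log2 fold changes after *Dnmt3a*, among genes at an unadjusted p under 0.01 whose mean log2 CPM was not below 0, were those of *Ighm* (-1.25, SE 0.32), the constant chain of immunoglobulin M, *Adig* (-0.81, SE 0.21), an adipocyte gene, *Efcab6* (-0.66, SE 0.21) and *Lhfpl4* (-0.65, SE 0.20), with adjusted p-values of 0.285, 0.297, 0.506 and 0.438.

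Of 18 tested myogenic regulators and developmental sarcomere genes, 5 were higher and 2 lower at an unadjusted p under 0.05 (3.23% and 2.28% of all genes), with a median log2 fold change of 0.08. The number lower was 1 without mouse 3, 4, 5, 9, 10, 16, 17 or 22. In females only 3 were higher and 0 lower, and in males only 6 were higher and 1 lower. The higher ones were *Myh8*, *Eya4*, *Myog*, *Pax7* and *Myf6* (0.35, SE 0.12, edgeR adjusted p = 0.647). Over the 18 genes, log2 fold changes ran from -0.25 to 3.46, and 13 were above 0. *Myh3*, the embryonic myosin heavy chain, was at 21.2 to 54.5 CPM in WT and 22.3 to 53.0 CPM in mD3AKO mice, so that the groups covered the same range, and its log2 fold change was 0.05 (SE 0.56). Among 18 genes of denervation and the neuromuscular junction, 3 were higher and 0 lower (3.23% and 2.28% of all genes), with a median of 0.07. Beside *Myog* these were *Sln* (0.86, SE 0.30, adjusted p = 0.647), which encodes an inhibitor of the sarcoplasmic calcium pump, and *Runx1* (0.73, SE 0.27, adjusted p = 0.711), a transcription factor that denervated muscle induces. *Runx1* was highest in mouse 19, and without that mouse its log2 fold change was 0.34 and 3 of the 18 genes were higher.

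The study names 10 developmental genes from these samples, so that their count is no independent evidence. Of the 10, 8 were higher and 2 lower at an unadjusted p under 0.05 (3.23% and 2.28% of all genes), 4 were called (0.11% of all genes) and the median was 0.56. *Hoxc9* (0.35, SE 0.10, edgeR adjusted p = 0.438) and *Cux1* (0.19, SE 0.05, adjusted p = 0.37) were among the 8, and *Hoxa10* (-0.35, SE 0.08, adjusted p = 0.123) and *Wnt16* (-1.02, SE 0.37, adjusted p = 0.724) were the 2. Of 21 Hox genes tested, 4 were higher and 4 lower (3.23% and 2.28% of all genes), with a median of 0.12. The number higher was 2 without mouse 4 or 17, and the number lower was 2 without mouse 5 or 17. The higher ones were *Hoxc9*, *Hoxc8*, *Hoxc5* and *Hoxc6*, of which *Hoxc5* overlaps *Hoxc9* and *Hoxc8* on the same strand, and the lower ones were *Hoxa10*, *Hoxd10*, *Hoxd8* and *Hoxd9*. None of the 21 passed the adjusted threshold, and 1 of them, *Hoxa10*, passed it in 3 of 16 other settings (adjusted p = 0.0246 in DESeq2).

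Another 9 genes that the study chose on these samples, of which *Sim2* and *Pax7* are also among the 10, were all higher at an unadjusted p under 0.05 (3.23% of all genes), with 5 called (0.104%) and a median of 0.63. Those not called were *H19*, *Pax7*, *Eef1a1* and *1600002K03Rik*. *H19*, a long noncoding RNA of an imprinted locus that is abundant in developing muscle, was at 1412 to 3530 CPM in WT and 3300 to 4830 CPM in mD3AKO mice (log2 fold change 0.65, SE 0.19, edgeR adjusted p = 0.408). Its groups overlapped through the WT female 22. *Eef1a1*, the elongation factor isoform that adult muscle largely replaces by *Eef1a2*, was at 504 ± 40.8 CPM in WT and 622 ± 95.3 CPM in mD3AKO mice (0.30, SE 0.09, adjusted p = 0.438). Among 28 imprinted genes tested, 4 were higher and 0 lower (3.23% and 2.28% of all genes), with a median of 0.05, and without mouse 10 there were 2 lower. Beside *H19* these were *Igf2r* (0.21), *Rian* (0.95) and *Mirg* (0.78), the last 2 long noncoding RNAs of the same imprinted cluster on chromosome 12, with adjusted p-values of 0.521, 0.711 and 0.842.

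Of 23 metabolic regulators that respond to exercise, 0 reached an unadjusted p under 0.05 between the genotypes, with a median log2 fold change of -0.02. The number higher was 1 without mouse 3, 6, 18, 22 or 23 and in males only. *Ppargc1a* was at 82.3 ± 17.7 CPM in WT and 76.7 ± 22.9 CPM in mD3AKO mice, *Hk2*, the hexokinase of muscle, at 695 ± 54.3 and 643 ± 85.7 CPM, and *Pdk4*, the kinase that inactivates pyruvate dehydrogenase, at 1210 ± 520 and 1182 ± 312 CPM. The log2 fold changes were -0.10 (SE 0.16), -0.11 (SE 0.09) and -0.03 (SE 0.38). Of 26 immediate early genes 1 was higher at an unadjusted p under 0.05, *Fosl1* (0.60, SE 0.27, edgeR adjusted p = 0.85), beside 3.23% of all genes. The median was 0.16, or -0.18 in females alone, 0.03 without mouse 17, -0.02 without mouse 10 and 0.31 without mouse 3. Without mouse 19, which had the highest level, the log2 fold change of *Fosl1* was 0.19. The number higher was 0 without mouse 4, 9 or 19 and 2 without mouse 6. *Atf3*, the most abundant of them, was at 48.6 to 577 CPM in WT and 19.7 to 818 CPM in mD3AKO mice, so that mice of one genotype differed more than the genotypes. None of 46 nuclear genes of oxidative phosphorylation reached an unadjusted p under 0.05, with a median of 0.03.

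Of 21 heat shock genes, 7 were higher and 1 lower at an unadjusted p under 0.05 (3.23% and 2.28% of all genes), and the median was 0.18. *Dnajb1*, a co-chaperone of HSP70, was at 15.6 to 57.6 CPM in WT mice and at 14.1, 20.3, 136, 96.3, 183 and 29.4 CPM in mD3AKO mice. The 3 mD3AKO males stood above all WT mice, females 6 and 23 within the WT range and female 3 just below it. Its log2 fold change was 1.19 (SE 0.45, edgeR adjusted p = 0.73), or 0.08 in females and 1.34 in males with an unadjusted p of 0.00239 and an adjusted p of 0.999916 for the difference. *Hspb1* was at 142 to 252 CPM in WT and 136 to 314 CPM in 5 mD3AKO mice, with 1013 CPM in mouse 19. Without mouse 19, the log2 fold change was 0.12 for *Hspb1* and 0.76 for *Dnajb1*. That of *Hsp90aa1* was 0.53 (SE 0.22, adjusted p = 0.828) with mouse 19 and 0.13 without it, and that of *Cryab* 0.16 (SE 0.15, adjusted p = 0.993) and -0.07. *Hspa1a* and *Hspa1b*, genes of inducible HSP70 that are near copies of each other, had log2 fold changes of 1.03 (SE 0.50, adjusted p = 0.899) and 1.33 (SE 0.55, adjusted p = 0.817), and both had 0.68 without mouse 19. Without mouse 19, 0 of the heat shock genes were higher, and the median was 0.05. The number higher was 11 without mouse 3, 4 without mouse 5 or 10 and 3 without mouse 25. In females alone 0 were higher and the median was near 0, and in males alone 9 were higher and the median was 0.31. Among all genes of these 2 fits, 462 of 16895 and 983 of 16074 reached that p in either direction. With limma-voom 0 were higher, and in the fit of the 13 exercised libraries alone 1. The number lower was 0 without mouse 3, 5, 6 or 16.

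Mouse 19 was high in other transcripts too. *Cd68*, a macrophage gene, was at 32.4 CPM in mouse 19 and at 2.03 to 4.11 CPM in the other 5 mD3AKO mice, beside 1.85 to 5.00 CPM in WT mice. Its log2 fold change was 1.30 (SE 0.49, edgeR adjusted p = 0.734), or 0.01 without mouse 19. It was the 1 gene of 14 tested immune markers at an unadjusted p under 0.05, beside 3.23% of all genes higher and 2.28% lower. The number higher was 0 without mouse 19 and 2 without mouse 5. The summed level of the markers was 74.1 to 270 CPM in mD3AKO and 104 to 261 CPM in WT mice. *Rrad*, a small GTPase of muscle, and *Gm8818*, a processed pseudogene, belong to the largest positive log2 fold changes by the rule for named genes (1.75, SE 0.52, and 4.04, SE 0.93). Without mouse 19 these were 0.11 and 0.39. Of 28 interferon response genes, 6 were higher and 1 lower (3.23% and 2.28% of all genes), with a median of 0.17. Among the higher were *Ifit1* (0.76, SE 0.18, edgeR adjusted p = 0.186; 0.0366 in DESeq2) and *Oasl2* (0.57, SE 0.20, adjusted p = 0.646). The lower one was *Ifi27*, the most abundant of the list, with a log2 fold change of -0.24 and means of 31.2 CPM in WT and 26.5 CPM in mD3AKO mice. Without mouse 19, 2 were higher and the median was 0.05, and there were also 2 higher without mouse 18 or 25 and 3 without mouse 4. In females alone 0 were higher and the median was 0.08, and in males alone 3 were higher and the median was 0.24. The log2 fold change of *Ifit1* was 0.52 without mouse 19.

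**Figure D4:**
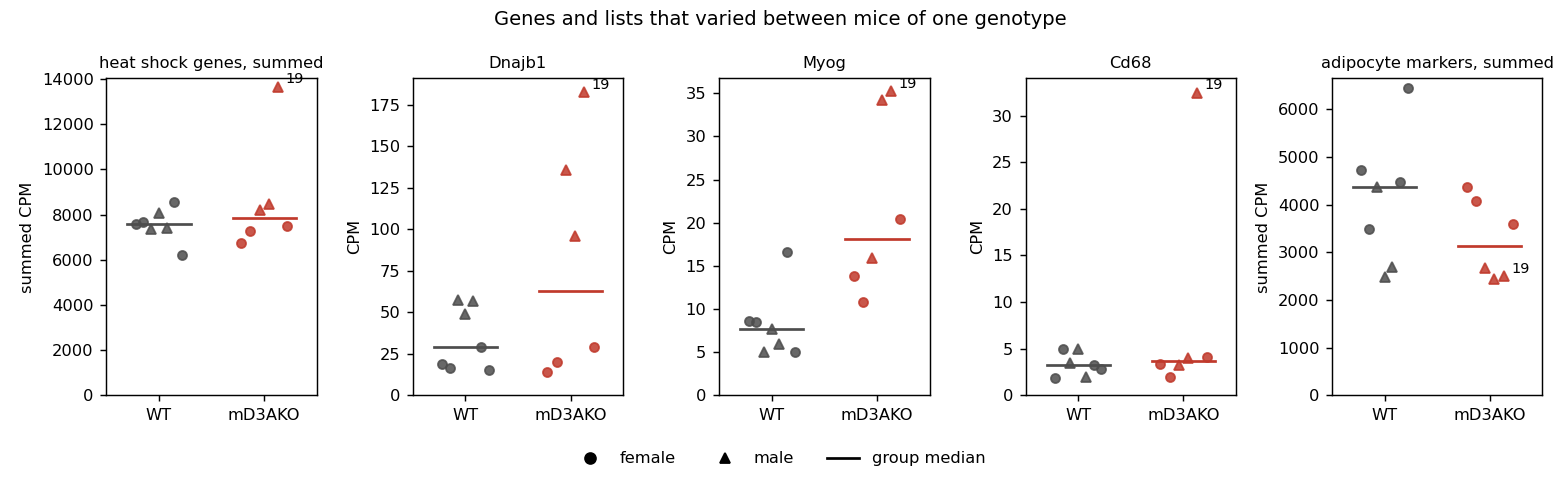
Summed CPM of heat shock genes and adipocyte markers, and CPM of *Dnajb1*, *Myog* and *Cd68*, in each exercised mouse, with circles for females, triangles for males, a line at the group median and the number of mouse 19. Mouse 19 is highest for heat shock genes (13659 summed CPM), *Dnajb1*, *Myog* and *Cd68*, and lies among the lower mD3AKO mice for adipocyte markers.

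No adipocyte marker and no glutathione gene passed the adjusted threshold. Of 14 tested adipocyte markers, 0 were higher and 3 lower at an unadjusted p under 0.05 (3.23% and 2.28% of all genes), all 14 log2 fold changes were below 0 and the median was -0.98. *Adipoq*, which encodes adiponectin, was at 6.64 to 77.4 CPM in WT and 7.64 to 28.3 CPM in mD3AKO mice, and *Plin1*, the lipid droplet coat of fat cells, at 3.10 to 58.5 and 4.39 to 18.4 CPM. The lowest mice of both groups were alike and the WT group reached higher. *Lipe*, *Cidec* and *Retn* were the 3, with log2 fold changes of -0.47 (SE 0.17), -1.09 (SE 0.51) and -1.46 (SE 0.69) and edgeR adjusted p-values of 0.721, 0.892 and 0.892. Leaving out 1 mouse at a time moved the median of the list between -1.17 and -0.77 and the number lower between 1 (without mouse 6, 9, 17, 19, 22 or 25) and 8 (without mouse 5 or 18). Summed over all markers, the level was 2477 to 6449 CPM in WT and 2447 to 4369 CPM in mD3AKO mice, of which *Car3*, also a muscle gene, held most.

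Of 26 glutathione genes tested, 0 were higher and 5 lower at an unadjusted p under 0.05 (3.23% and 2.28% of all genes), with a median of -0.13, and 6 had a log2 fold change above 0. The number lower was 8 without mouse 23, 2 in females only and 7 in males only. They were the transferases *Gstm2* (log2 fold change -0.57, SE 0.17, edgeR adjusted p = 0.438), *Gstt3* (-0.48, SE 0.15, adjusted p = 0.512), *Gstt1* (-0.49, SE 0.16, adjusted p = 0.54), *Gstm1* (-0.28, SE 0.11, adjusted p = 0.751) and *Gstp2*. *Gstm2* was at 18.1 to 34.3 CPM in WT and 11.6 to 23.9 CPM in mD3AKO mice, with overlap. It was called in 3 of 16 other settings, which were sex as a term, blocks of mouse numbers and 8 groups. Of 23 one-carbon genes, 3 were higher and 1 lower (3.23% and 2.28% of all genes), with a median of -0.01. The number higher was 1 without mouse 25, and the number lower was 0 without mouse 6, 17, 19 or 25, 2 without mouse 3, 5, 16, 22 or 23 and 3 without mouse 18. In the fit of all libraries these were *Aldh1l1* (1.12), *Ahcy* (0.19, SE 0.08, adjusted p = 0.796), whose enzyme removes the product of methylation reactions, and *Mat2a* upward, and *Cbs* (-0.89, SE 0.38, adjusted p = 0.838) downward, on 2 to 16 counts per library.

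**Figure D5:**
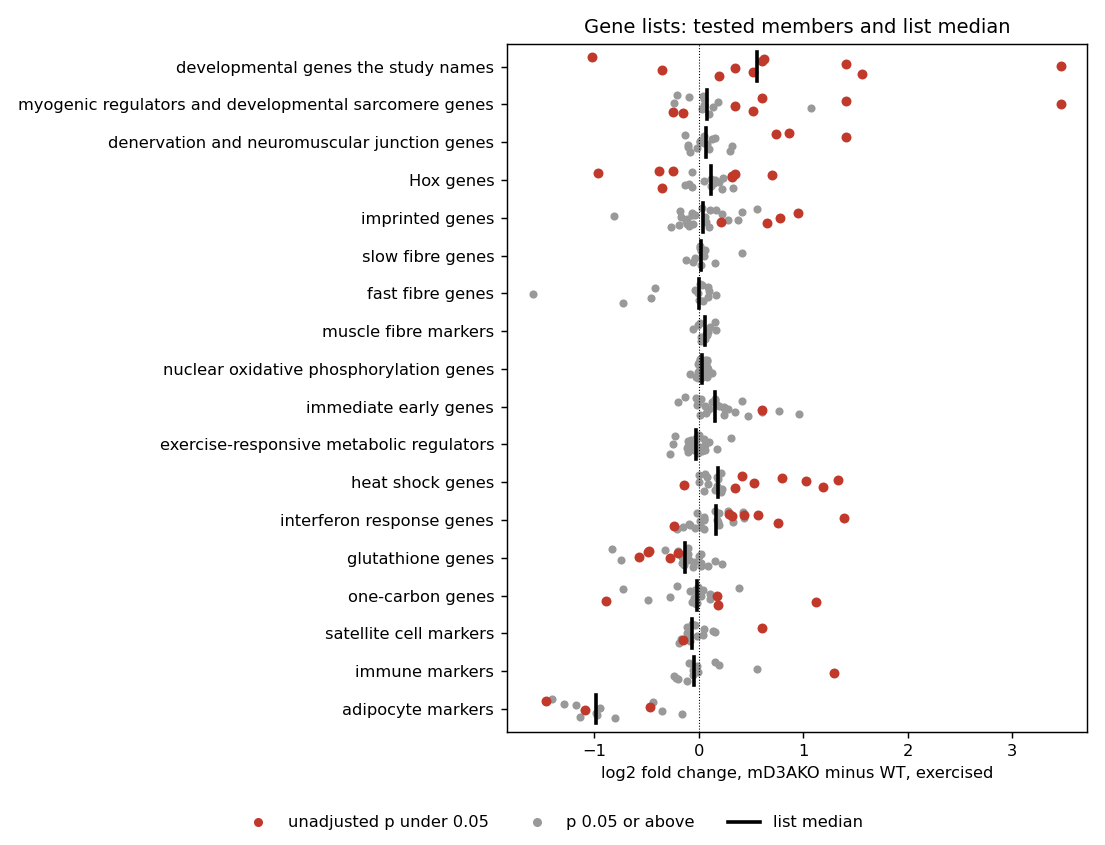
Log2 fold change of the tested members of 18 gene lists, mD3AKO minus WT in exercised mice, with members at an unadjusted p under 0.05 in red and the median of each list as a bar. Among these 18 lists the medians run from -0.98 for adipocyte markers to 0.56 for the developmental genes that the study chose on these samples. Those of fiber type and oxidative phosphorylation genes are near 0. Another 9 genes that the study chose on these samples had a median of 0.63, above this range.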

How the data were processed

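RNA of the *soleus* of 25 mice was sequenced by the authors as strand-specific, ribosome-depleted total RNA. Reads were counted on a GENCODE gene model of mm10, and the submitters' processing notes name STAR 2.5.3a and featureCounts 1.5.3. The deposited counts per gene are raw, with no normalization or filter. The sources used here do not give the strand setting of the counting. Beside *Elf3* and *Gm43691*, exons of the called genes *Dnmt3a*, *Mttp*, *Aldh1l1* and *Cmtm7* overlap genes on the opposite strand. These are *Dnmt3aos*, *Trmt10a*, *Gm15756* and *Gm9888*, and whether they share reads was not tested. Groups, sex and mouse numbers came from the sample labels, and 0 columns belonged to other samples. A symbol was matched for 52403 of 52636 genes.

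Counts were tested with edgeR 4.0.16 (limma 3.58.1, R 4.3.3; quasi-likelihood F test, TMM). Genes were kept by filterByExpr (4 groups, minimum count 10, minimum total 15), which left 16340. The model had 1 mean per group over all 25 libraries, and the contrast was exercised mD3AKO minus exercised WT, called at a Benjamini-Hochberg adjusted p under 0.05. The study tested genotype, exercise and their interaction, terms that 1 mean per group also holds. For its genotype effect on expression it pooled exercised and rested mice, whereas the contrast here lies within exercised mice. CPM used TMM-scaled library sizes. The median total was 31354371 counts in exercised WT and 31396321 in exercised mD3AKO libraries. In each of the 36 pairs of replicates the counts differed beyond counting error (lowest chi-square per gene 18.8). The labels do not say whether mice shared a litter or a day.

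Named genes are all called genes, the 30 lowest p, the 5 largest rises and falls at a mean log2 CPM of at least 0 and an unadjusted p under 0.01, list members by lowest p or highest level, *Dnmt3a* and genes the study names. *Myh2*, *Myh3*, *Ppargc1a*, *Adipoq* and *Plin1* were added from their lists with their values known. The members and lists were chosen with earlier results of these data known. One gene of a list is not reported here. The scripts were tested on simulated data. Alternatives were other normalizations, filters, tools (DESeq2 1.42.0, limma-voom), covariates and samples.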

Additional observations from a re-analysis of the deposited data

Results flagged for a closer look

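In 236 groups of 6 or 7 mice (a gene or list in 1 genotype), 21 held 1 mouse far from the others by Dixon's criterion. The criterion is set for about 1 of 20 independent groups by chance. Many of these genes were named from the same values, *Rrad* and *Gm8818* among them, and some are also members of the lists. The 21 can therefore not be set against that share, and they are a description only. Mouse 19, an exercised mD3AKO male, accounted for 9 of them and stood high in each. It was at 32.4 CPM for *Cd68*, where the next mD3AKO mouse was at 4.11, at 3365 CPM for *Cryab*, 2.34 for *Fosl1*, 45.5 for *Gm8818*, 264 for *Hsp90aa1* and 1013 for *Hspb1*. It was at 96.0 CPM for *Rrad*, where the next was at 9.15, at 21.8 for *Runx1*, and its summed heat shock genes were at 13659 CPM, where the next mouse was at 8476.

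In other exercised mD3AKO mice, mouse 17 was high in the summed exercise-responsive metabolic regulators (4618 CPM) and in the summed mitochondrially encoded genes (57030 CPM, next 40173), and mouse 23 was high in *Gstt3* (2.65 CPM) and *Hoxd10* (0.561 CPM). Without mouse 17 the median log2 fold change of the mitochondrially encoded genes went from 0.21 to 0.01.

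Among the exercised WT mice, mouse 16 was high in *A930002C04Rik* (0.192 CPM), mouse 25 high in *Dnmt3b* (1.47 CPM) and low in the summed Hox genes (73.5 CPM), mouse 18 high in *Hoxc8* (0.971 CPM) and low in *Runx1* (4.04 CPM), and mouse 9 high in the summed genes of the integrated stress response (1067 CPM). Mouse 22 was high in *Myog* (16.6 CPM, next 8.59) and in *Pax7* (4.20 CPM, next 3.23). Without mouse 22 the log2 fold changes of *Myog* and *Pax7* were 1.68 and 0.68, against 1.40 and 0.60 with it.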

How the results depend on the processing

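No paired analysis was possible because each mouse number occurs in 1 library. Of 18 calls, counts in 13 of 16 alternatives were within 1.5 times. Exceptions for exercised mice were 5 calls in females only, 6 in males only and 29 with DESeq2, which held all 18, and for rested mice 4, 4 and 27. Leaving out 1 exercised mouse gave 15 to 20 calls. *Dnmt3a* stayed between -1.67 and -1.59. Calls lost most often were those of *Gm43691*, *Cmtm7*, *Agtrap* and *Gm47708*. Over 82 named genes and 2363 pairs of gene and alternative, 2229 kept direction and side of the threshold, 69 were weaker, 38 stronger and 27 reversed. None of the reversed genes was called. In females only, log2 fold changes were -0.103 for *Dnmt3b*, -0.0174 for *Atf3*, 0.0394 for *Myh7*, -0.164 for *Hspb1*, -0.0203 for *Hsp90aa1*, -0.157 for *Cryab* and -0.0195 for *Cd68*. In males only, they were 0.157 for *Ppargc1a*, -0.0942 for *Myh3* and 0.206 for *Pdk4*. *Pdk4* was 0.0323 with sex as a term, 0.0143 with blocks of mouse numbers, 0.0097 with 8 groups and 0.0502 with limma-voom. Without single mice, the ranges were -0.160 to 0.138 for *Pdk4*, -0.0754 to 0.179 for *Myh3*, -0.112 to 0.00569 for *Myh7*, -0.000865 to 0.240 for *Dnmt3b* and -0.0691 to 0.224 for *Cryab*. The causes were not tested. Rare genes such as *Rab17*, *Gm43691* and *Cbs* gave no value under the filter at 1 CPM, DESeq2 gave none for *Gm8818* and *Rrad*, and the fit of the 13 exercised libraries gave none for rested mice or the interaction. The fit of rested libraries alone was added after seeing the data. Genes under 1 CPM carry the largest counting error.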
